A study of Mus musculus with 19 samples.

Results

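Transcripts of 10 heat shock proteins and chaperones were followed across 19 RNA-seq libraries of mouse bone marrow cells. The members are Hspb1, Hspa1a, Hspa1b, Hspa8, Hsph1, Dnajb1, Hsp90aa1, Hspd1, Hspe1 and Hspa5, 10 of the 14246 genes listed in all 3 cell sets, and they were found by symbol in the gene counts. The set was chosen by measured values in part: Hspb1 was added for its large rise in MT libraries of LK cells, and the question was whether the other 9 follow it. The LK value of Hspb1 is therefore given as a description with no test. The other 9 were read in the same libraries that selected Hspb1, so their LK tests are not independent of that choice.

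The series compares mice with mutant Asxl1 (MT) and wild-type mice (WT). CD11b-positive myeloid cells came from animals of 4 months (young; 3 MT and 4 WT libraries) and of 18 months (old; 3 and 3). LK cells, the lineage-negative progenitors that carry Kit, came from animals of 18 months (3 and 3). The mutant allele, the promoter or Cre that drives it, the strain and the batches are not given in the sources used here, and neither is whether replicates are separate animals, so p-values measure the spread between libraries, which may be technical.

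Heat shock proteins are chaperones that bind unfolded protein and either hold it soluble or refold it with ATP. The heat shock factor HSF1 induces many of them when unfolded protein builds up in the cytosol, by binding repeats of the unit GAA and its complement TTC ahead of the gene. Unfolded protein in the endoplasmic reticulum acts through other sensors and raises that compartment's own chaperones, with Hspa5 (BiP) as the best known.

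Gene counts summed to 26251822 to 38347903 per young library and to 31853263 to 68260809 per library of the 18-month sets. Itgam, which encodes CD11b, was at 1481 to 3465 CPM (counts per 1000000 gene counts, scaled with TMM factors over all 19 libraries) in Cd11b libraries and at 45.3 to 85.7 CPM in LK libraries. Kit was at 170 to 220 CPM in LK and at 62.2 to 115 CPM in Cd11b libraries. Asxl1 was at 202 to 236 CPM in young, 279 to 306 CPM in old and 92.5 to 117 CPM in LK libraries, and total counts do not tell its mutant from its normal transcript. Within all 4 of the 18-month groups, replicates 2 and 3 lay close to each other (chi-square per degree of freedom 2.92 to 6.39 over genes), and every pair with replicate 1 lay further apart (13.7 to 44.6). Young MT replicate 3 and young WT replicate 4 carried the Y-linked transcript Ddx3y (104 and 109 CPM), the other 5 young libraries had 0 to 0.037 CPM, and all 12 libraries of 18 months had 50.4 to 81.6 CPM. Libraries with and without this transcript are thus spread unevenly over the ages. The small nuclear RNA 7SK was at 6124 to 11880 CPM in young and at 3.33 to 5.37 CPM in 18-month libraries, here relative to gene counts without TMM factors.

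The sequence ahead of a gene holds the sites that heat shock factors read, so the promoters of the members that differed most between libraries are shown first. RefSeq promoter windows (GRCm38.p6, the build of mm10) matched 8 of the 10 members, and the 250 bases before each start were searched on both strands. The motifs were GAANNTTC (2 units head to head), TTCNNGAA (2 units tail to tail), GAANNTTCNNGAA (3 units, which contains both) and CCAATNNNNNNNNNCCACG, the endoplasmic reticulum stress element, which contains the CCAAT box. Of 32851 promoter windows of this length, 6.69% held the head-to-head pair, 7.17% the tail-to-tail pair, 0.466% the 3-unit form and 0.113% the endoplasmic reticulum stress element, while CCAAT alone stood in 33.8%. Capitals mark GAANNTTC in the windows of Hspb1 (chr5:135887669-135887918, plus strand), Hspa1a (chr17:34972157-34972406, minus strand) and Hspa1b (chr17:34959239-34959488, minus strand).
Hspb1: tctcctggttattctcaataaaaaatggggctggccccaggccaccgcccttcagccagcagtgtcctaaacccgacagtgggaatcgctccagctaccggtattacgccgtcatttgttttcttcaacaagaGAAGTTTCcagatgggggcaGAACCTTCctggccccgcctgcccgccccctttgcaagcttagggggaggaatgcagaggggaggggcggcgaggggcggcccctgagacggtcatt
Hspa1a: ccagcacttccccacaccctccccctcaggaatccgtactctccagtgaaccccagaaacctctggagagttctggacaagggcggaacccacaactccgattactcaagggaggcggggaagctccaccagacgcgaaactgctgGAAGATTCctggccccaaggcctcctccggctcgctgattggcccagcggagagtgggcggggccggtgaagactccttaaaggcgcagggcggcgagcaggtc
Hspa1b: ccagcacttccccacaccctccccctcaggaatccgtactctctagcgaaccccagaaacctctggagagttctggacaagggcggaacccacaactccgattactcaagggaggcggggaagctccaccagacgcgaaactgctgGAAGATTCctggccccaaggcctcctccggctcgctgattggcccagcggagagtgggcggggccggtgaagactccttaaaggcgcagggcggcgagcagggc
The Hspb1 window held GAANNTTC at 2 places, from -117 to -110 and from -97 to -90 relative to the start. Hspa1a and Hspa1b held it once, from -104 to -97, and 247 of their 250 bases were identical (98.8%). The likeness goes on into the genes: the coding sequences of 1923 and 1926 bases matched at 1915 of 1926 aligned positions (99.4%), with an identical run of 638 bases. Reads of Hspa1a and Hspa1b can thus be shared or lost between them, and the value of each is uncertain while their joint level is not affected by a swap.

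The other members differed in what stood ahead of them, shown here as stretches of 30 bases. Hspe1 and Hspd1 stand back to back on chromosome 1, and the 18 bases in capitals (chr1:55088053-55088082, plus strand) hold 2 overlapping 3-unit matches. They lie ahead of the start of Hspe1 and of 1 of the 2 RefSeq starts of Hspd1. The window of the other Hspd1 start, which lies further upstream, held 0 elements, and seen from that start the stretch lies inside the gene. Hsph1 has TTCNNGAA (in capitals; chr5:149636351-149636380, minus strand), and Hspa5 has the endoplasmic reticulum stress element (in capitals; chr2:34772020-34772049, plus strand) and no heat shock element of these forms. Positions are relative to the RefSeq starts; the GENCODE gene models of Hsph1 and Hspa5 begin further upstream and take in these stretches.
Hspe1 and Hspd1: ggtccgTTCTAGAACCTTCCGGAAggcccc
Hsph1: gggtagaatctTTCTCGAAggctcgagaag
Hspa5: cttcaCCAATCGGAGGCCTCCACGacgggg
Dnajb1 had no match to the heat shock motifs in its window, which says only that these letters are not there. Hspa8 and Hsp90aa1 are named only.

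**Figure D1:**
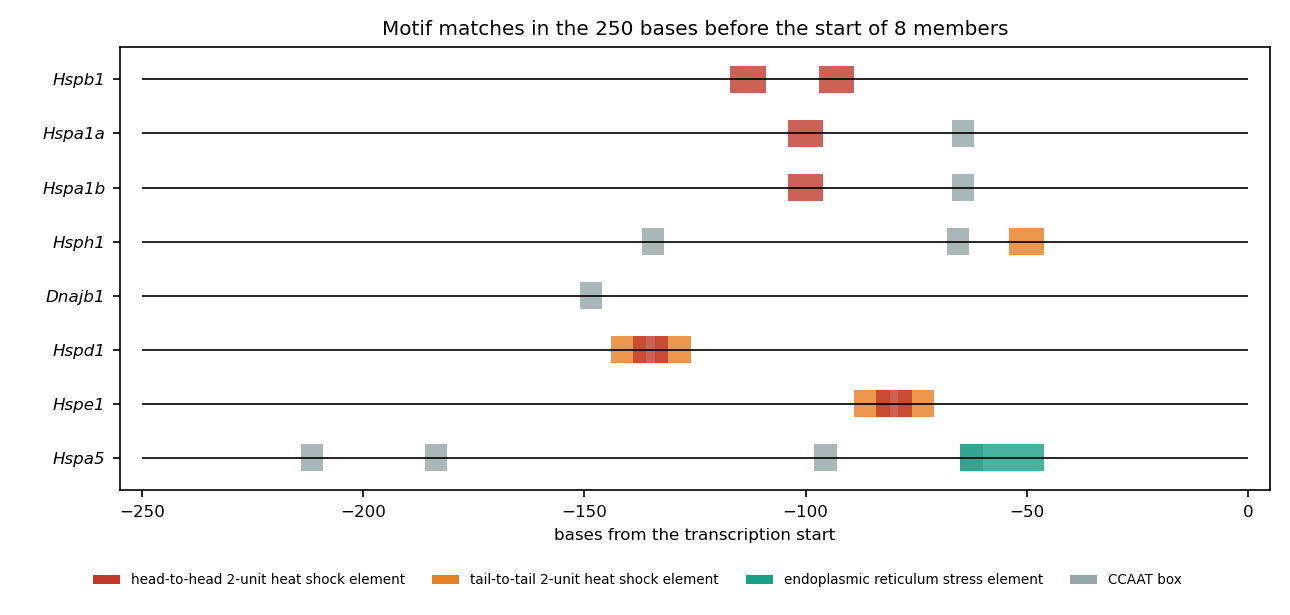
Each line is the 250 bases before the start of a member and boxes are motif matches by their distance from the start in bases, with 1 window shown for each of the 8 members. Hspb1 has 2 head-to-head elements, Hspa1a and Hspa1b have 1 at the same distance, Hspe1 and the downstream start of Hspd1 share a longer one, and Hspa5 alone of the 8 has the endoplasmic reticulum stress element.

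Hspb1 encodes HSP27, a small heat shock protein that holds unfolded protein without using ATP (chromosome 5, 135887919 to 135889563, plus strand, GRCm38). It was a rare transcript everywhere. LK MT replicates 1, 2 and 3 had 22, 65 and 63 counts (0.369, 1.05 and 0.895 CPM), and LK WT replicates had 13, 4 and 7 counts (0.223, 0.0615 and 0.171 CPM). The LK groups did not overlap, with MT replicate 1 nearest to WT, and the log2 fold change that selected the gene was 2.34. Among old Cd11b libraries, MT had 8, 21 and 22 counts and WT had 5, 2 and 1, which is 0.159, 0.431 and 0.580 CPM against 0.107, 0.0589 and 0.0182 CPM. The old groups did not overlap either, and replicate 1 of MT again lay nearest to WT. In young Cd11b cells MT libraries had 2, 1 and 1 counts and WT libraries 16, 4, 3 and 1. The highest young library was thus a WT library, at 0.591 CPM. The gene passed the filter on low counts in LK cells and not in the fits of young or old Cd11b cells, so no test is given there.

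Hspa1a and Hspa1b encode the inducible HSP70 and are single-exon genes side by side on chromosome 17 (34969190 to 34972156 and 34956436 to 34959238, minus strand). Hspa1a was at 16.04, 226 and 217 CPM in LK MT replicates 1, 2 and 3 and at 15.1, 0.784 and 0.806 CPM in the LK WT replicates. Replicates 2 and 3 were thus far above WT in MT and at the bottom in WT, while replicate 1 was at about the same level in each genotype. Old Cd11b cells had the same arrangement, with 26.5, 167 and 165 CPM in MT and 20.8, 2.18 and 2.16 CPM in WT libraries. Young Cd11b cells did not: Hspa1a was at 15.6, 4.24 and 65.3 CPM in MT and at 152, 54.4, 51.5 and 7.78 CPM in WT libraries, and the groups overlapped. The young library with the most Hspa1a was WT replicate 1.

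Hspa1b gave the same picture at a somewhat higher level. It was at 28.3, 340 and 331 CPM in LK MT and at 29.8, 1.69 and 1.76 CPM in LK WT libraries. Old Cd11b libraries held it at 30.2, 212 and 210 CPM in MT and at 30.02, 4.095 and 4.29 CPM in WT libraries. Young libraries ran from 4.65 to 97.5 CPM in MT and from 12.9 to 246 CPM in WT. The ratio of Hspa1b to Hspa1a stayed between 1.10 and 2.18 over the 19 libraries, while Hspa1a itself ran from 0.784 to 226 CPM.

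In LK cells the log2 fold change was 4.71 ± 1.64 (SE, n = 3 and 3) for Hspa1a, with an edgeR adjusted p of 0.103, and 4.34 ± 1.65 for Hspa1b, with an adjusted p of 0.125. The old Cd11b values were 3.80 ± 1.31 (adjusted p 0.277) and 3.53 ± 1.26 (adjusted p 0.289). None of the 4 passed the threshold of 0.05, and the spread within the groups was wide: in LK MT the SD of Hspa1a was 119 CPM around a mean of 153 CPM. Over its alternatives the adjusted p of Hspa1a ran from 5.79e-39 to 0.494 in LK and from 5.91e-27 to 0.964 in old cells, and the lowest of each came from the fit of replicates 2 and 3 alone. In young cells the log2 fold changes were -1.23 ± 1.24 and -1.36 ± 1.29 (adjusted p 0.999 each).

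**Figure D2:**
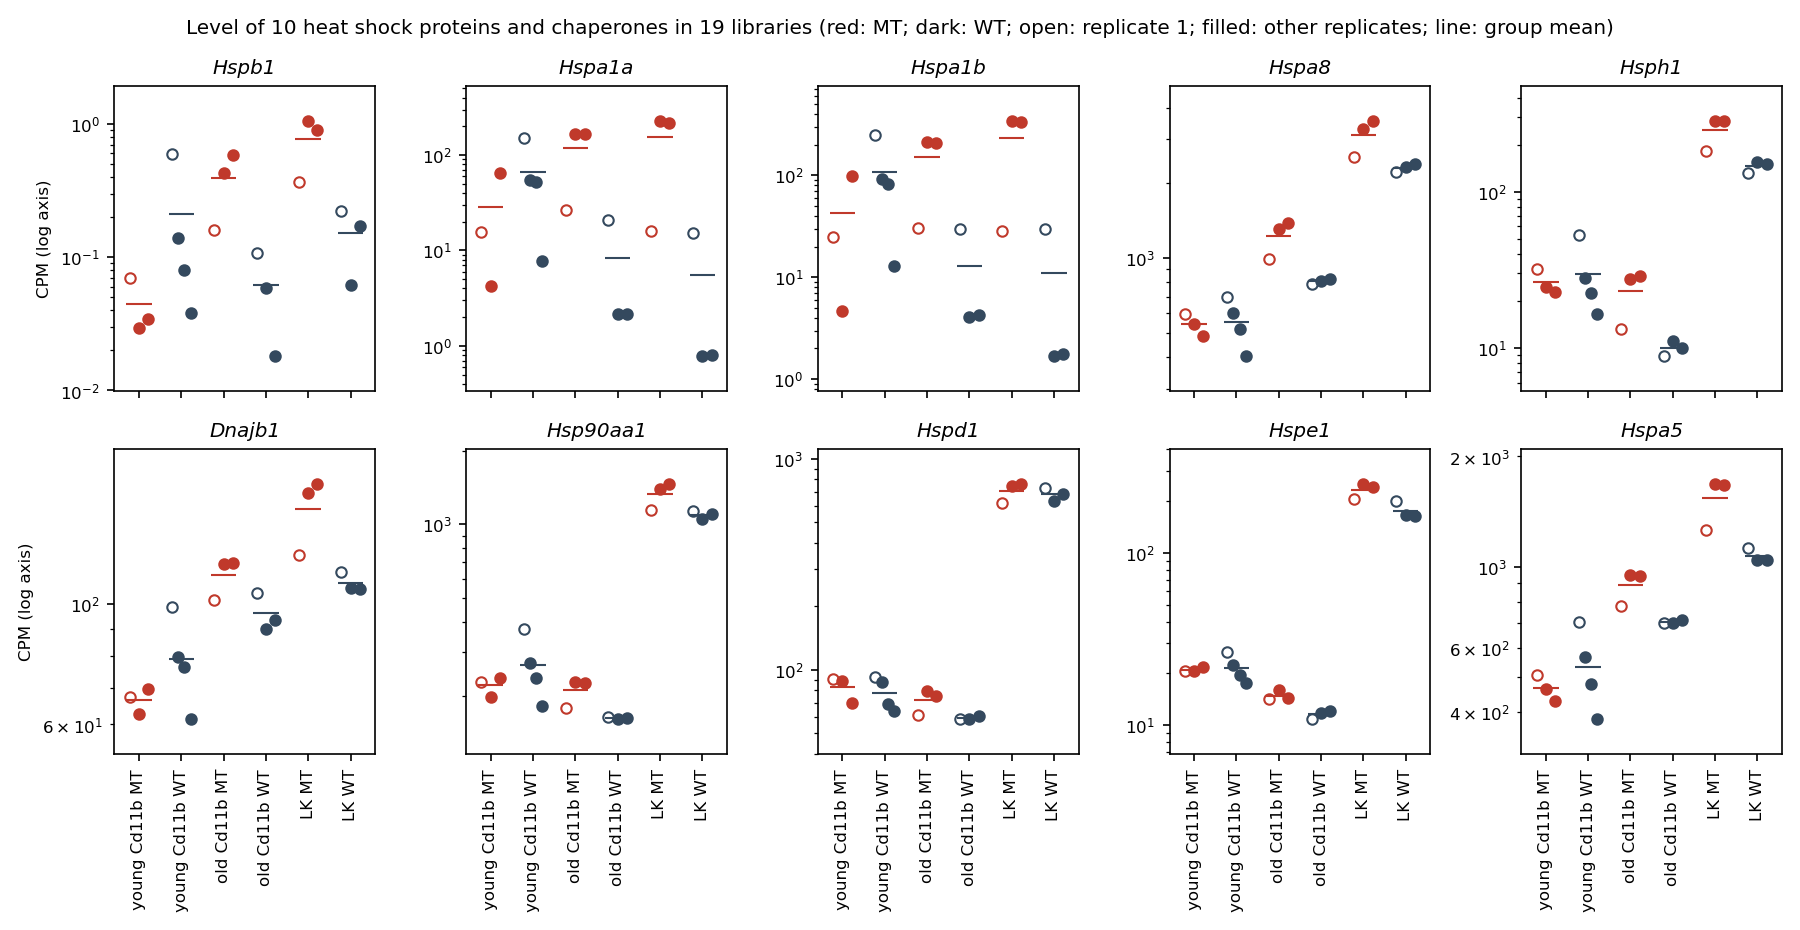
Each panel shows the CPM of 1 member on a log axis in the 6 groups, with 1 point per library (MT red, WT dark), replicate 1 drawn open and the group mean as a line. For Hspa1a and Hspa1b the filled points of the 18-month groups separate widely (LK Hspa1a 217 to 226 CPM in MT, 0.784 to 0.806 in WT), while the open points of MT and WT lie together.

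Partners of HSP70 moved less and more evenly. Hsph1 encodes HSP110, a relative of HSP70 that exchanges its nucleotide (chromosome 5, 149614287 to 149636376, minus strand). It was at 181, 281 and 282 CPM in LK MT and at 132, 155 and 151 CPM in LK WT libraries, so every MT library was above every WT library. The log2 fold change was 0.73 ± 0.17 (SE, n = 3 and 3; edgeR adjusted p 0.0208), and it rose by this test. Among old Cd11b libraries Hsph1 was at 13.3, 27.7 and 28.7 CPM in MT and at 8.89, 11.1 and 10.1 CPM in WT libraries, again without overlap (1.21 ± 0.30 on the log2 scale, adjusted p 0.150). Young libraries overlapped, at 22.7 to 32 CPM in MT and 16.5 to 52.6 CPM in WT.

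Dnajb1 encodes an HSP40, the J-domain partner that hands clients to HSP70 (chromosome 8, 83608193 to 83612653, plus strand). In LK cells it rose from 114, 107 and 107 CPM in WT to 123, 160 and 166 CPM in MT libraries, a log2 fold change of 0.42 ± 0.09 (adjusted p 0.0156). Old MT libraries of Cd11b cells had 102, 118 and 119 CPM and WT libraries 105, 89.8 and 93.3 CPM. Dnajb1 was the only member whose old groups overlapped, through replicate 1 (log2 fold change 0.23 ± 0.07, adjusted p 0.198). In young cells it was at 62.8 to 69.7 CPM in MT and 61.4 to 98.7 CPM in WT libraries.

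Hspa8 encodes the constitutive HSP70, which most cells hold at a high level without stress (chromosome 9, 40800984 to 40810087, plus strand). It was at 2548, 3271 and 3529 CPM in LK MT and at 2214, 2306 and 2370 CPM in LK WT libraries, and rose by 0.41 ± 0.10 on the log2 scale (adjusted p 0.0225). The old Cd11b libraries had 993, 1310.0 and 1378 CPM in MT and 791, 807 and 827 CPM in WT, with no overlap (0.60 ± 0.11 on the log2 scale, adjusted p 0.0696). That was the smallest adjusted p among the members in old cells. Young libraries held 486 to 597 CPM in MT and 406 to 698 CPM in WT.

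Hsp90aa1 encodes the inducible HSP90, which matures kinases and receptors (chromosome 12, 110690605 to 110702728, minus strand). It rose in LK cells from 1132, 1053 and 1099 CPM in WT to 1146, 1390.0 and 1456 CPM in MT libraries (log2 fold change 0.25 ± 0.07, adjusted p 0.0372). MT replicate 1 exceeded the highest WT library only narrowly. Old Cd11b values were 178, 227 and 226 CPM in MT and 163, 160 and 162 CPM in WT libraries (0.37 ± 0.08, adjusted p 0.0945). Young WT replicate 1 had the highest young value of Hsp90aa1, 375 CPM, and the young groups overlapped.

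Hspd1 and Hspe1 encode HSP60 and HSP10, the chamber and the lid of the mitochondrial chaperonin, and stand on opposite strands with overlapping 5′ ends (chromosome 1, 55077835 to 55088243, minus strand, and 55088132 to 55091307, plus strand). Whether reads in the overlap were assigned by strand is not given in the sources used here. Hspe1 was at 206, 250.2 and 241 CPM in LK MT and at 200, 166 and 164 CPM in LK WT libraries, and rose by 0.37 ± 0.08 on the log2 scale (adjusted p 0.0150). This call was lost, at 0.14 (adjusted p 0.0861), with the trend of fold change on transcript length and GC removed; at 774 bp of exon Hspe1 is the shortest member. Hspd1 was at 619, 741 and 756 CPM in LK MT and at 729, 631 and 680 CPM in LK WT libraries, so the groups overlapped (0.02 ± 0.07, adjusted p 0.849). Counts of Hspd1 per count of Hspe1 were 2.96 to 3.14 in LK MT and 3.65 to 4.14 in LK WT libraries, without overlap; this difference was seen before it was described and was not tested. The ratio in old Cd11b cells was 4.34 to 5.21 in MT and 4.98 to 5.38 in WT libraries. There both genes lay higher in every MT library, Hspd1 at 61.3, 79.6 and 75.1 against 58.4, 58.7 and 60.4 CPM (0.28 ± 0.08, adjusted p 0.179) and Hspe1 at 14.1, 15.96 and 14.4 against 10.9, 11.8 and 12.1 CPM (0.35 ± 0.08, adjusted p 0.0860).

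Hspa5 encodes BiP, the HSP70 of the endoplasmic reticulum, where it also restrains the stress sensors (chromosome 2, 34771970 to 34777547, plus strand). It was at 1260, 1677 and 1672 CPM in LK MT and at 1124, 1043 and 1045 CPM in LK WT libraries. The groups did not overlap, and it rose by 0.49 ± 0.09 on the log2 scale (adjusted p 0.0107, the smallest of the 9 in LK cells). Its old Cd11b levels were 779, 952 and 943 CPM in MT and 703, 703 and 714 CPM in WT libraries (0.33 ± 0.07, adjusted p 0.0800). Young libraries held 430 to 507 CPM in MT and 383 to 705 CPM in WT.

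Counted together, 6 of the 9 members other than Hspb1 were called higher in LK MT cells and 0 lower: Hspa8, Hsph1, Dnajb1, Hsp90aa1, Hspe1 and Hspa5. Of all 14113 LK genes, 29.8% were called, 13.9% higher and 15.9% lower. The fitted change was positive for 9 of 9, with a median of 0.42, beside 53.1% of all genes and a median of 0.02. Every LK MT library lay above every WT library for 7 of the 9, beside 22.6% of all genes. Hspa1b and Hspd1 were the exceptions, each because MT replicate 1 lay below a WT library. The calls were made with replicates 2 and 3, which lie close together, counted as separate libraries. With their counts summed to 1 library, 0 of the 9 were called, and only 0.0207% of all genes. The sum also leaves fewer libraries per group, and whether that or the closeness of the pair lowered the calls was not tested. Without MT replicate 2, WT replicate 2 or WT replicate 3, 0 of the 9 were called, where the shares over all genes were 6.94%, 6.87% and 7.49%. Without MT replicate 3 there was 1 (8.28% of all genes) and without WT replicate 1 there were 2 (38.8%). In LK cells fold changes also fell with transcript length, and with the length and GC trend removed 4 of the 9 were called, beside 20.4% of all genes: Hspe1 dropped to 0.14 (adjusted p 0.0861; 1.91e-18 to 0.210 over its alternatives) and Hspa8 to 0.36 (0.0599; 0.000279 to 0.212).

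In old Cd11b cells edgeR called 0 of the 9 members that passed the filter, where 0.336% of 13398 genes were called. Each of the 9 was nevertheless higher in MT, with a median log2 fold change of 0.37 against 0.00 for all genes, of which 51.0% were positive. Their unadjusted edgeR p was under 0.05 in 9 of 9 (0.000706 to 0.0452) and their adjusted p ran from 0.0696 to 0.289. The share of all genes with an unadjusted p under 0.05 is not given, here or below. Such counts therefore have no background and are not read as a result about the members. DESeq2 called 6 of the 8 members to which it gave an adjusted p, all higher, and 3.39% of 15070 genes. Every old MT library was above every old WT library for 8 of these 9 members, beside 11.2% of all genes. Results of these libraries were known when the members were listed.

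The difference between genotypes was larger in replicates 2 and 3 than in replicate 1 for each of the 9 members other than Hspb1 in LK cells and for 8 of these 9 in old Cd11b cells, Hspe1 being the exception. Over all genes this share was 61.9% in LK and 51.1% in old cells. The MT replicate 1 library stood above the WT replicate 1 library for 7 of the 9 in LK and 8 of 9 in old cells. The median log2 ratios were 0.08 and 0.15, and the shares over all genes were 42.8% and 50.5%. The means of replicates 2 and 3 stood above WT for 9 of 9 in each set, with medians of 0.61 in LK and 0.49 in old cells, beside 58.5% and 52.1% of all genes. An alternative chosen after seeing the data left out replicate 1 of each group. It called 8 of the 9 members higher in LK cells, where 30.3% of all genes were called higher, and 9 of 9 in old cells, where 19.9% were. Its p-values read the spread between the closest libraries of each group alone.

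**Figure D3:**
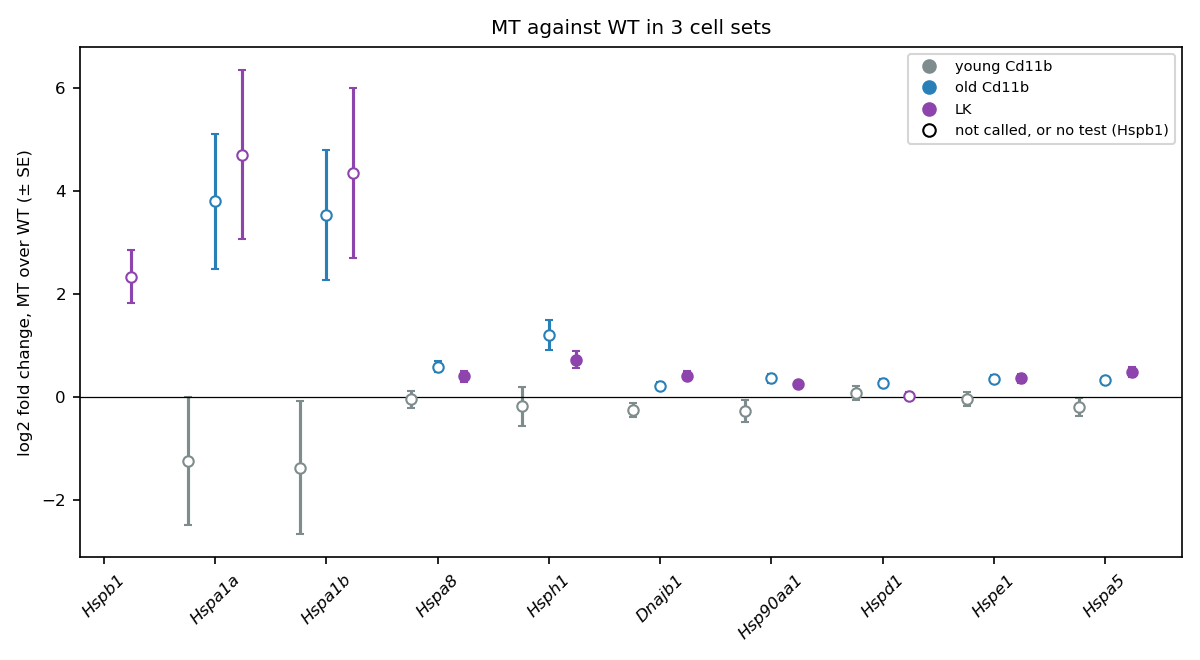
Points are the log2 fold change of MT over WT for each member in young Cd11b, old Cd11b and LK cells, with bars of 1 SE, filled where called and open where not called or, for Hspb1, not tested. LK and old values lie above 0 for the 9 tested members (0.02 to 4.71 and 0.23 to 3.80), and 8 of 9 young values lie below 0 with errors wide for Hspa1a and Hspa1b.

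Young Cd11b cells showed no such rise. None of the 9 members that passed the filter was called by edgeR or DESeq2, and none had an unadjusted p under 0.05, in a comparison that called 0% of 13755 genes. The fitted change was negative for 8 of 9 (median -0.19, all genes -0.01). Of the 10 members, 0 separated the groups in either direction, which few genes did: of 13368, MT lay wholly above WT for 303 and wholly below for 287. Hspa8, Hsph1 and Hspe1 turned positive when WT replicate 1 was left out (0.10, 0.26 and 0.10), and 0 members were called without MT replicate 3 and WT replicate 4. In the test of the difference between ages, the MT effect was larger in old than in young cells for 9 of 9 members other than Hspb1, by 0.19 (Hspd1) to 5.04 (Hspa1a) on the log2 scale. None was called by edgeR (adjusted p 0.531 to 0.905, with 0.0214% of genes called) or by DESeq2. An unadjusted edgeR p under 0.05 was found for 8 of 9, with no share of all genes given beside it. The 4 and 18 month libraries differ as sets, in 7SK counts and in the share of libraries with Ddx3y, so effects of age, sex and library set cannot be told apart here. By edgeR the difference between LK and old cells was called for 0 of the 9 members read (adjusted p 0.160 to 0.970), where 20.7% of genes were called. An unadjusted p under 0.05 was found for 0 of them. DESeq2 called 0 too, but gave only 7 of the 9 an adjusted p. The edgeR estimates of this difference included 0.90 ± 2.01 for Hspa1a and -0.49 ± 0.39 for Hsph1. Their errors leave room for large differences in either direction.

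WT libraries gave the level of each chaperone without the mutation. In LK cells, per kb of exon, Hspa8 led at 959 ± 32.6 CPM per kb (SD, n = 3), then Hsp90aa1 at 324 ± 11.8, Hspa5 at 285 ± 12.4, Hspd1 at 281 ± 20.2 and Hspe1 at 228 ± 26.0. Hsph1 (34.6 ± 2.91) and Dnajb1 (34.1 ± 1.38) followed, and Hspa1b (3.95 ± 5.78), Hspa1a (1.88 ± 2.79) and Hspb1 (0.147 ± 0.0801) came last. Hspa5 and Hspd1, and Hsph1 and Dnajb1, did not differ beyond their spread. Hspa1b and Hspa1a varied together, at 1.97 to 2.18 counts of Hspa1b per count of Hspa1a in LK WT libraries, though their reads can be shared. In old Cd11b cells Hspa8 (338 ± 7.66) and Hspa5 (188 ± 1.77) led, ahead of Hsp90aa1 (47.9 ± 0.414), Dnajb1 (29.9 ± 2.45) and Hspd1 (24.4 ± 0.452). Hspe1 stood at 14.96 ± 0.836 and Hsph1 only at 2.37 ± 0.256 CPM per kb, within the spread of Hspa1a (2.83 ± 3.63) and Hspa1b (4.57 ± 5.32).

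Compared within each gene, 6 of the 9 members tested were higher in LK than in old Cd11b cells of WT animals and 0 lower, in a comparison that called 86.8% of genes and 45.1% higher. The mitochondrial pair and Hsph1 differed most. Hspe1 was higher by 3.83 ± 0.09 on the log2 scale (adjusted p 1.85e-09), Hsph1 by 3.78 ± 0.10 (4.98e-09) and Hspd1 by 3.43 ± 0.06 (7.99e-10). Hsp90aa1 followed at 2.66 ± 0.05 (9.1e-10), Hspa8 at 1.41 ± 0.06 (5.79e-08) and Hspa5 at 0.50 ± 0.05 (1.25e-05). Dnajb1 (0.09 ± 0.07, adjusted p 0.223), Hspa1a (-0.70 ± 1.57, 0.691) and Hspa1b (-0.33 ± 1.49, 0.846) were not called. Cell type and sort gate are the same contrast here.

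Old against young WT Cd11b cells called 5 of 9 members, where 73.1% of genes were called, 36.1% higher and 36.9% lower. Hspa8 was higher at 18 months (0.52 ± 0.15, adjusted p 0.0106). Hsph1 (-1.60 ± 0.41, 0.0112), Hspe1 (-0.91 ± 0.13, 0.000105), Hsp90aa1 (-0.73 ± 0.21, 0.0140) and Hspd1 (-0.42 ± 0.12, 0.00890) were lower. Hspa1a and Hspa1b were at -2.99 ± 1.36 and -3.09 ± 1.31 and were not called (0.0998 and 0.0823). Ddx3y was present in 1 of 4 young and 3 of 3 old WT libraries, and 7SK differed as given above, so age, sex and library set cannot be told apart.

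**Figure D4:**
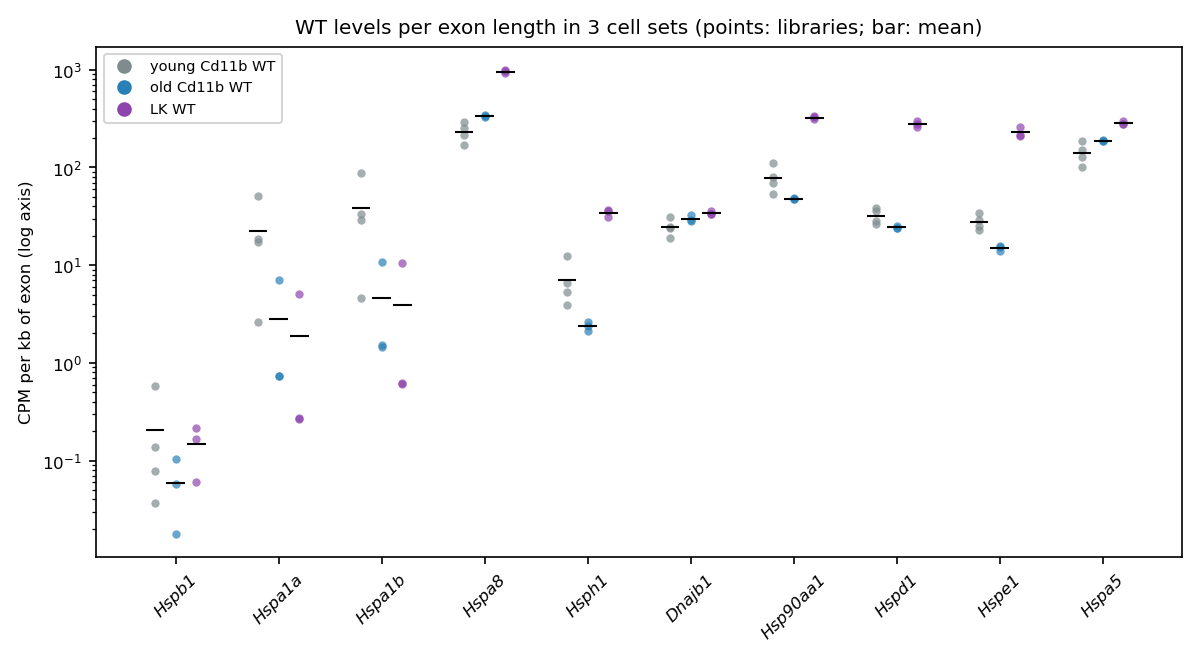
Points are WT libraries of young Cd11b, old Cd11b and LK cells, in CPM per kb of exon on a log axis, with the group mean as a bar. Hspa8 is the highest member in each set (959 CPM per kb in LK), Hspd1, Hspe1, Hsph1 and Hsp90aa1 stand far higher in LK than in Cd11b libraries, and Hspa1a and Hspa1b spread widest within a group.

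The wider chaperone network was read from lists of 102 other genes, of which 96 were listed in all 3 cell sets. In LK cells edgeR called 35 of 96 higher and 7 lower in MT, beside 13.9% and 15.9% of all genes, with a median log2 fold change of 0.12 against 0.02. Chaperones and regulators of the endoplasmic reticulum had 13 of 23 higher and 2 lower (median 0.25). Co-chaperones of HSP70 and HSP90 had 10 of 21 higher and 1 lower, and heat-inducible genes that are not members had 7 of 17 higher and 0 lower. J-domain proteins had 4 of 17 higher and 3 lower, the cytosolic chaperonin and prefoldin 5 of 13 higher and 1 lower, and mitochondrial chaperones and proteases 2 of 9 higher. Small heat shock proteins other than Hspb1 had 0 of 3 called, and Hspb2, Hspb3 and Hspb7 were not analysed here. The lists overlap, and they were drawn up with results of these libraries known.

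Serpinh1, which encodes the collagen chaperone HSP47, rose most, from 1.18 ± 0.194 to 2.91 ± 1.08 CPM (SD, 3 libraries each), by 1.28 ± 0.28 on the log2 scale (adjusted p 0.0141). Dnaja1, another HSP40, rose from 150 ± 15.4 to 238 ± 52.0 CPM (0.63, adjusted p 0.0258), and Bag3, a co-chaperone of HSP70, from 17.7 ± 2.03 to 25.9 ± 4.26 CPM (0.52, 0.0157). Sdf2l1 and Creld2, 2 proteins of the endoplasmic reticulum, rose by 0.61 (adjusted p 0.00957) and 0.59 (0.0167). Hsp90b1, the HSP90 of that compartment, rose by 0.25 (0.0295). Of 3 sensors of endoplasmic reticulum stress, Eif2ak3 (PERK) was not called (-0.13). Ern1 (IRE1) fell from 38.2 ± 5.58 to 21.3 ± 0.772 CPM (-0.87, adjusted p 0.00627) and Atf6 from 64.0 ± 0.813 to 54.5 ± 0.320 CPM (-0.26, 0.00675). Dnajc5, Dnajc10 and Dnajb12, J-domain proteins, fell by 0.30, 0.28 and 0.27. Hsf1 itself was at 54.8 ± 0.721 CPM in WT and 55.1 ± 2.76 CPM in MT (-0.02, adjusted p 0.738). Hsp90ab1, the constitutive HSP90 (0.13, 0.107), and Hspa9, the mitochondrial HSP70 (-0.11, 0.0569), were not called.

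**Figure D5:**
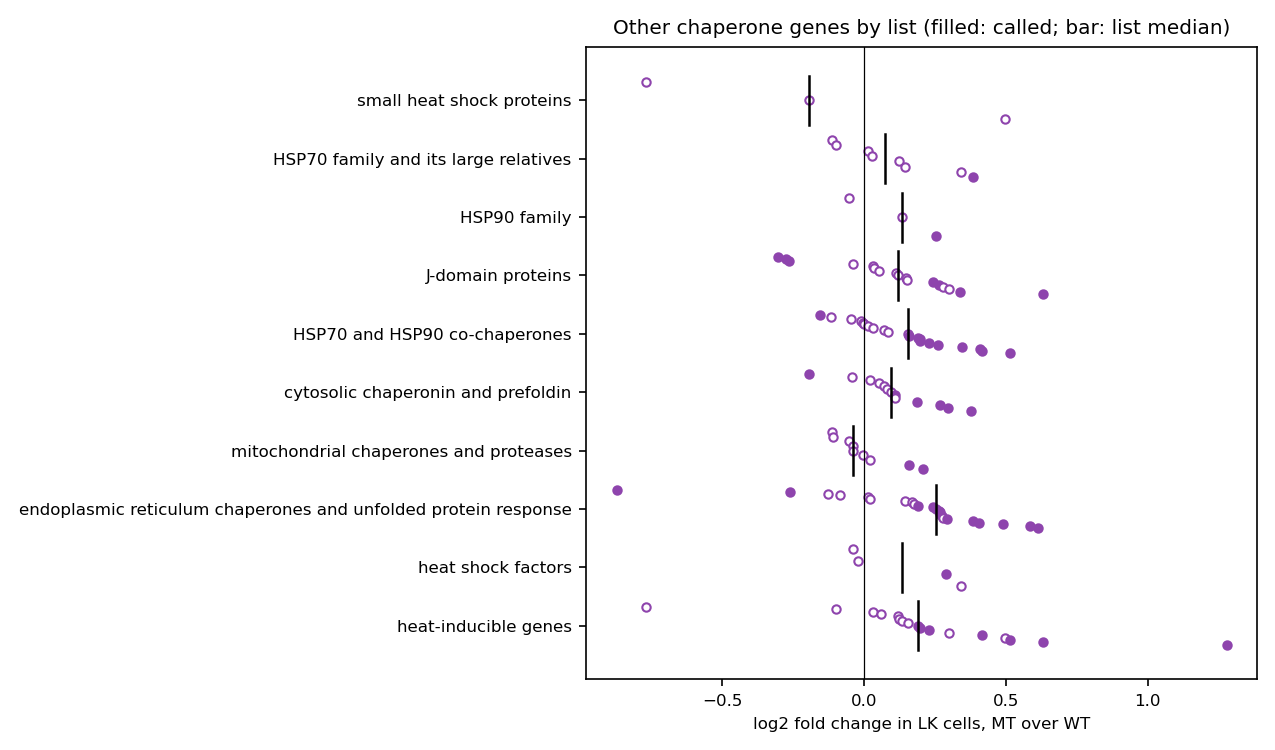
Each point is a chaperone gene that is not among the 10 members, placed by its log2 fold change in LK cells (MT over WT), filled where called, with the list median as a bar; a gene on several lists appears in each. The endoplasmic reticulum list has the highest median (0.25), and Ern1 (-0.87) and Serpinh1 (1.28) mark the ends of the called genes.

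The LK counts of this network fell to 12 to 13 genes when replicate 2 or replicate 3 of either genotype was dropped. Calls over all genes fell too, from 29.8% to between 6.87% and 8.28%, so these fits do not single out 1 library. Dropping replicate 1 raised the calls over all genes instead, to 35.9% for the MT library and 38.8% for the WT library. After removal of the length and GC trend, 39 genes of the network were called, beside 20.4% of all genes. In old Cd11b cells edgeR called 0 of 95 of these genes, and DESeq2 called 6, beside 3.39% of all genes. Of the 95, 23 had an unadjusted edgeR p under 0.05 (18 of them higher), with no share of all genes given beside it. Hsf1 was at 0.21 ± 0.05 there (adjusted p 0.0978) and Bag3 at -0.07 ± 0.08 (0.714). In young cells 0 of 95 were called, by DESeq2 also 0, with 3 at an unadjusted p under 0.05. The difference between LK and old cells was called for 16 of 96 genes, 8 in each direction (16.7%, beside 20.7% of all genes). DESeq2 called it for 24, 15 of them larger in LK cells, beside 23.9% of all genes, 10.6% larger. It was called for 0 with replicates 2 and 3 summed, where 0% of all genes were called. Among the 16 were Bag3 (0.58 ± 0.15, adjusted p 0.0216) and Ern1 (-0.73 ± 0.17, 0.0142). In WT cells 62 of 96 were called higher in LK than in old Cd11b cells and 27 lower (92.7% called). Of all genes, 86.8% were called in that comparison, 45.1% higher. Bag2 (6.02 ± 0.12) and Hspa12a (-6.07 ± 0.34) stood at the ends.

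Across the 19 libraries, with log2 CPM centred on each cell set, the genes most like Hspb1 among 10141 were Hspa5 (Pearson r 0.936), Dnajb1 (0.935), Rnf121 (0.910), Atf4 (0.902) and Chordc1 (0.892). Hspa1a (0.889), Hspa1b (0.882), Hsph1 (0.875), Hspe1 (0.874), Hspa8 (0.868) and Hsp90aa1 (0.867) came within the first 16, and Hspd1 (0.618) at place 697. For Hspa1a the order was Hspa1b (0.997), Atf4 (0.950), Ywhah (0.934), Ier2 (0.933) and Nck1 (0.930), with Dnajb1 (0.909) at place 7. The points share libraries and the high MT replicates 2 and 3 of 18 months, and Hspb1 rests on counts of 1 to 65, so these values describe the libraries only. The LK libraries whose difference selected Hspb1 are among the points. The ranking for Hspb1 is therefore not independent of that choice and is no test of whether the others follow it.

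Other transcripts were read in the same libraries. Immediate early genes, which respond within minutes to growth factors and stress, had 12 of 18 called higher and 0 lower in LK MT cells, beside 13.9% and 15.9% of all genes. It was 12 without any 1 library and 0 with replicates 2 and 3 summed. Their summed level was 2785, 2944 and 2966 CPM in LK MT and 2180, 2056 and 1995 CPM in LK WT libraries. The same sum in old Cd11b cells was 8957, 10260 and 10360 CPM in MT and 8719, 6968 and 6802 CPM in WT libraries, with replicate 1 of the 2 genotypes nearest to each other, as for Hspa1a. In young cells it was 4966 to 6891 CPM in MT and 6280 to 8125 CPM in WT, and 0 of 18 were called; without MT replicate 3 and WT replicate 4 there were 10, all lower. Neutrophil markers in LK cells had 1 of 8 tested called higher by edgeR, near the share of all genes (13.9%). DESeq2 called 6 of 9, beside 12.7% of all genes called higher. The 9 on the list summed to 1063, 3680 and 3566 CPM in MT and 956, 475 and 451 CPM in WT libraries, so replicate 1 of the 2 genotypes lay close. None of the 9 was at 0 throughout. Old Cd11b libraries, for comparison, held 141200 to 172400 CPM of these markers. Basophil and mast cell markers had 4 of 4 called lower in LK MT, at a summed 136 to 148 CPM against 164 to 186 CPM in WT, with 2 to 4 called when 1 library was left out and 0 with replicates 2 and 3 summed. T and NK cell markers had 1 of 6 called higher, also near the 13.9% of all genes, at 189 to 244 CPM in MT and 154 to 191 CPM in WT libraries. In old Cd11b cells the 4 erythroid markers listed in all sets, of 7, summed to 6.61, 31.8 and 30.3 CPM in MT and 6.08, 8.25 and 7.65 CPM in WT libraries, with 0 of 5 called. The part of immediate early genes and of these cell type transcripts in the differences of the members was not tested, and in bulk samples fewer cells of a type and less RNA per cell cannot be told apart.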

How the data were processed

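Gene counts of 19 libraries were used. For each library the deposited file lists whole-number gene counts by symbol. STAR, HTSeq, DESeq2 and mm10 are named in the submitters' processing notes; use of strand and of reads that match several places is not given in the sources used here. Per the labels' protocols, column-purified total RNA went into strand-keeping libraries. Deposited repeat counts gave only 7SK. The members and gene lists were chosen with earlier results of these data known.

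Counts were tested in 7 comparisons with edgeR 4.0.16 (filterByExpr, TMM, robust quasi-likelihood; R 4.3.3), adjusted by Benjamini-Hochberg over all genes tested and called under 0.05. An SE is the log2 fold change divided by the root of F. DESeq2 1.42.0 was an alternative. Depth was 26251822 to 68260809 gene counts. CPM use TMM factors over all 19 libraries. Likeness used log2(CPM + 0.5) for genes with a mean of 5 CPM or more. Named were all members, 5 fixed chaperone genes, and up to 5 called others per direction with a mean of 50 counts or more. Lengths and positions came from GENCODE M21 and promoters from RefSeq, each on GRCm38. The fits were tested on simulated data. Python 3.11.15, numpy 2.4.6, pandas 2.3.3 and matplotlib 3.10.9 were used.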

Additional observations from a re-analysis of the deposited data

How the results depend on the processing

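Counts of called members other than Hspb1 in LK cells (6) stayed within 1.5 times with RLE factors, no low-count filter, DESeq2, all 19 libraries in 1 fit, removal of the length and GC trend and, added after seeing the data, replicates 2 and 3 only. They were 0 with a replicate block and 0 with replicates 2 and 3 summed, where 3 of 14113 and 3 of 14512 genes were called in all, and ran from 0 to 7 when 1 library was left out (6.87% to 38.8% of all genes). The other chaperone genes in LK cells (42 of 96) went to 0 with the replicate block and 0 with replicates 2 and 3 summed. They went to 73 with replicates 2 and 3 only, where 60% of all genes were called, and 12 to 50 without 1 library (6.87% to 38.8%). The replicate numbers share no stated animal or batch, and the deviations of same-numbered MT and WT libraries correlated by -0.241 to 0.131 over genes, so no pairing was assumed. Over all genes the block moved calls from 4206 to 3 in LK, from 45 to 0 in old and from 0 to 16 in young cells.

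Immediate early genes, tried after seeing the data, went in LK cells from 12 to 0 with the block and 0 with replicates 2 and 3 summed. In old cells they went from 0 to 8 with DESeq2, 2 with all 19 libraries, 15 with replicates 2 and 3 only and 0 to 13 without 1 library, and in young cells to 2 with the block, 10 without MT replicate 3 and WT replicate 4 and 0 to 1 without 1 library.

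In old Cd11b cells members other than Hspb1 went from 0 to 6 with DESeq2 (3.39% of all genes called) and 9 with replicates 2 and 3 only (38.5%). Without 1 library these members ran from 0 to 5, with 5 without MT replicate 1 (2.29% of all genes) and 2 without WT replicate 1 (13.3%). Hspb1 had not passed the filter of the main fit. With replicates 2 and 3 only it passed through MT libraries, so its calls in these alternatives are not counted. The other chaperone genes there (95 in the main fit) went from 0 to 6 with DESeq2 and 38 with replicates 2 and 3 only, near the share of all genes (38.5%). Without 1 library they ran from 0 to 12, beside 0% to 13.3% of all genes. The interaction with cell type went from 0 to 9 members with replicates 2 and 3 only (52.4% of all genes) and 0 to 2 without 1 library (8.01% to 29.6%). For other chaperone genes it went from 16 to 0 with replicates 2 and 3 summed (0% of all genes). It went to 61 with replicates 2 and 3 only and 8 to 26 without 1 library, beside the shares just given. Old against young WT cells went from 5 of 9 members to 8 of 10 with DESeq2, where 68.1% of all genes were called. In young cells 1 other chaperone gene was called without MT replicate 3 and WT replicate 4, beside 0.497% of all genes.

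Signs turned for values near 0. With libraries left out in young cells, Hspa8 ran from -0.161 to 0.0967, with 0.0364 without MT replicate 3, 0.0967 without WT replicate 1 and 0.0138 without WT replicate 2. Hsph1 ran from -0.368 to 0.255 and Hspe1 from -0.135 to 0.0950, each highest without WT replicate 1. In LK cells Hspd1 became -0.0105 without MT replicate 2, -0.0216 without MT replicate 3, -0.0361 without WT replicate 2, -0.0272 with replicates 2 and 3 summed and -0.0239 after removal of the length and GC trend, and reached 0.0945 without MT replicate 1. The cause of these changes was not tested. Depth limits Hspb1, at 1 to 65 counts per library, and Hspa1a in LK WT replicates 2 and 3, at 51 and 33 counts.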
